A study of Homo sapiens with 6 samples.

Results

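Aminoacyl-tRNA synthetases are the enzymes that attach each amino acid to its tRNA. The set described here holds 36 of their genes, 20 for cytosolic enzymes and 16 for mitochondrial enzymes, the latter named with the suffix 2. The members were listed by name, with earlier results of these data known, and the rule uses no measured value. All 36 are among the 53712 genes of the deposited count table and among the 16873 genes with enough counts to be tested. RNA was measured in H9, an established human embryonic stem cell line that the labels call naive and that was grown in PXGL medium. The cells received 25 nM of an oligonucleotide against LINE-1, the retrotransposon family still active in the human genome, in antisense (ASO-L1) or sense (SO-L1, the control) orientation, with 3 libraries in each group. In both groups trans-ISRIB at 0.7 µM, the caspase inhibitor emricasan at 5 µM and the ROCK inhibitor Y-27632 at 10 µM were added and taken off after 24 hours, so the controls carry these agents too. RNA was extracted from the unsorted cells at 48 hours, and poly(A) libraries were made with a directional kit from 200 ng per sample. The labels do not describe replicates of a group as separate cultures, so the p-values reflect no more than the variation among these 6 libraries, which could be technical. Cells were not sorted for uptake of the oligonucleotide, and in bulk RNA fewer cells of a type and less RNA per cell cannot be told apart.

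Cytosolic synthetases charge the tRNAs read by cytosolic ribosomes, and several of them assemble with scaffold proteins into the multisynthetase complex. Mitochondrial synthetases are also encoded in the nucleus and are imported to charge the tRNAs of the mitochondrial genome. GARS and KARS encode both forms of their enzyme, so the split into compartments is not complete for glycine and lysine. The enzymes fall into class I and class II by the fold of their catalytic domain. ATF4, the transcription factor of the amino acid response, is known to induce many of the cytosolic genes through composite C/EBP-ATF response elements, and trans-ISRIB blocks the stress signalling that raises ATF4 translation.

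The response element is described first, since it is the sequence feature by which the cytosolic genes are best known. RefSeq windows (GRCh38.p14) from 250 bases before to 50 bases after each annotated start, 300 bases in all, matched 29 of the 36 members. DARS, LARS, QARS, VARS, YARS, AARS2 and VARS2 had no window. The letters TGATGNAA, searched on both strands, were found in 7 of 15 cytosolic genes (46.7%), in 1 of 14 mitochondrial genes (7.14%) and in 4.46% of the 27305 genes with such windows. The match in each of the 5 called cytosolic genes that have one, and in NARS, is shown in 30 bases read in the direction of the gene, with the 8 bases of the match in capitals.
AARS: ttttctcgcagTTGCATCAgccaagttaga
CARS: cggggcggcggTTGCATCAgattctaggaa
GARS: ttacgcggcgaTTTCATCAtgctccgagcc
IARS: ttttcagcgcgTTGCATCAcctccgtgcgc
NARS: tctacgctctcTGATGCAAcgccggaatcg
TARS: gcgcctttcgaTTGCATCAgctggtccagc
In 5 of these 6 the match reads on the strand opposite to the gene, and in NARS on the same strand. The AARS window lies at chr16:70289675-70289704, with the match starting at position -187 from the RefSeq start, upstream of the AARS gene and inside the annotated span of its divergent neighbour DDX19B. The windows of CARS at chr11:3057407-3057436, GARS at chr7:30594834-30594863 and IARS at chr9:92293692-92293721 touch a noncoding exon part in 3 of 5, 2 of 2 and 4 of 5 basic GENCODE v29 transcripts. The same holds for NARS at chr18:57621804-57621833 in its 1 transcript and for TARS at chr5:33440956-33440985 in 2 of 5. The other cytosolic match was in MARS (chr12:57488053-57488082), and the mitochondrial match was in YARS2 (chr12:32756076-32756105). The E-box CACGTG, which overlaps none of these matches, was present in 1 of 15 cytosolic genes, IARS, in 3 of 14 mitochondrial genes, CARS2, EARS2 and MARS2, and in 8.77% of all genes. A match describes the letters of a window and is neither a binding site nor a cause.

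After ASO-L1 the cytosolic genes moved in both directions. In the quasi-likelihood test of edgeR, adjusted over all tested genes after Benjamini and Hochberg, 6 of 20 rose (30%, AARS, CARS, GARS, HARS, IARS and YARS), 4 fell (20%, DARS, LARS, SARS and TARS) and 10 did not pass an adjusted p of 0.05. Of the 16 mitochondrial genes, 1 rose (6.25%, HARS2), 2 fell (12.5%, IARS2 and NARS2) and 13 did not pass. Among all tested genes 18.0% were called higher and 15.7% lower. Over the 36 members together 7 were called higher (19.4%) and 6 lower (16.7%), near this background. The cytosolic shares lie above it and the mitochondrial shares below it. The sizes were small, with a median absolute log2 fold change of 0.18 over the 36 members against 0.27 over all tested genes. The sets were not matched for level. Members had at least 227 counts in every library, whereas the filter on all genes used a minimum count of 10. The median signed log2 fold change was -0.06 for the cytosolic and -0.16 for the mitochondrial genes, beside -0.01 for all tested genes.

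**Figure D1:**
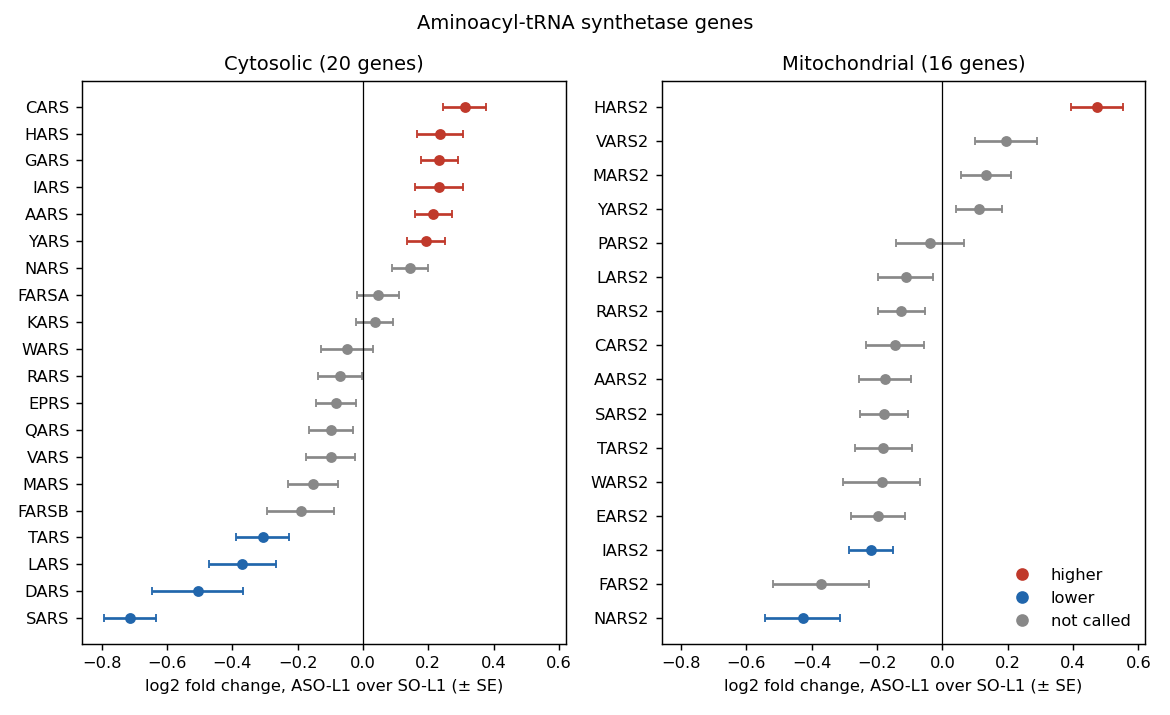
Fitted log2 fold change of each gene (ASO-L1 over SO-L1, with its standard error) for the 20 cytosolic and 16 mitochondrial synthetases, coloured by the call at an adjusted p of 0.05. The cytosolic values run from -0.71 for SARS to 0.31 for CARS, and 12 of the 16 mitochondrial values lie below 0.

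Separation of the libraries also went in both directions, but it held for more mitochondrial genes than were called. Every ASO-L1 library exceeded every SO-L1 library in 7 of 20 cytosolic and 4 of 16 mitochondrial genes. The reverse held in 4 of 20 cytosolic and 7 of 16 mitochondrial genes. Over all tested genes the shares were 25.8% for ASO-L1 above and 25.1% for SO-L1 above. With the replicate number of the labels as a block in the same test, 7 cytosolic genes were called higher and 6 lower, and 1 mitochondrial gene higher and 5 lower, against a background of 23.3% higher and 22.5% lower. Within replicate numbers, 12 of the 36 genes were higher after ASO-L1 in all 3 pairs, 20 were lower in all 3, and 4 (RARS, WARS, FARSA and PARS2) were mixed. The matching shares over all tested genes were not computed, so these counts are not read as a trait of the members. Given 3 libraries a group, the smallest two-sided p of an exact permutation test for a single gene is 0.1, and no such test is given.

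SARS, the cytosolic seryl-tRNA synthetase, had the largest change of the set. Its level was 214, 215 and 206 CPM, the read count scaled to library size with TMM factors, in SO-L1 libraries 1, 2 and 3 and 135, 113 and 139 CPM in ASO-L1 libraries 1, 2 and 3. The groups were far apart relative to the spread within them, and ASO-L1 library 2 was the lowest. The log2 fold change was -0.71 ± 0.08 (SE, n = 3 per group), with an edgeR adjusted p of 0.00114, and its level fell by 39.0%. It was called in all 17 alternative settings, with log2 fold changes from -0.79 to -0.62 and adjusted p-values of edgeR, DESeq2 or limma from 2.56e-18 to 0.0432. Its mitochondrial counterpart SARS2 was at 45.4, 46.8 and 45.3 CPM in SO-L1 and 38.3, 40.3 and 42.7 CPM in ASO-L1. Its groups did not overlap, but the adjusted p was 0.0836 in the edgeR test (0.0482 with the replicate block).

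In the other 3 cytosolic genes that fell, ASO-L1 library 2 was again the lowest. DARS, the aspartyl enzyme of the multisynthetase complex, was at 161, 130 and 159 CPM in SO-L1 and 115, 83.0 and 118 CPM in ASO-L1, a log2 fold change of -0.51 ± 0.14 (edgeR adjusted p = 0.0244). LARS, the leucyl enzyme of the same complex and a leucine sensor for mTORC1, was at 406, 383 and 420 CPM in SO-L1 and 337, 256 and 342 CPM in ASO-L1, a change of -0.37 ± 0.10 (adjusted p = 0.0213). TARS, the threonyl enzyme, was at 485, 450 and 492 CPM in SO-L1 and 404, 339 and 411 CPM in ASO-L1, a change of -0.31 ± 0.08 (adjusted p = 0.0159). In SO-L1 library 2 was also the lowest for DARS, LARS and TARS. These 3 calls were lost without SO-L1 replicate 1 (adjusted p = 0.0770 for DARS, 0.0741 for LARS and 0.0658 for TARS) and without SO-L1 replicate 3 (0.0784, 0.0796 and 0.0706), with the sign kept.

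Of the cytosolic genes that rose, CARS, the cysteinyl enzyme, changed most. Its level was 69.8, 73.7 and 69.8 CPM in SO-L1 and 87.0, 93.0 and 84.6 CPM in ASO-L1. All ASO-L1 libraries stood above all controls, and the change was 0.31 ± 0.07 on the log2 scale, 24.1% (edgeR adjusted p = 0.00702). GARS, the glycyl enzyme of both compartments, held 340, 341 and 338 CPM in SO-L1 and 391, 417 and 390 CPM in ASO-L1 (0.23 ± 0.06, adjusted p = 0.0117). AARS, the alanyl enzyme, held 402, 420 and 412 CPM in SO-L1 and 463, 491 and 478 CPM in ASO-L1 (0.22 ± 0.06, adjusted p = 0.0166). In each of these 3 genes the libraries within a group were close together and ASO-L1 library 2 was the highest. The call of CARS held without any single library, that of GARS was lost without SO-L1 replicate 3 (0.0580), and that of AARS without SO-L1 replicate 1 (0.0575) or 3 (0.0695).

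HARS, IARS and YARS rose by similar amounts on less firm calls. HARS, the histidyl enzyme, was at 86.8, 78.1 and 84.3 CPM in SO-L1 and 93.2, 103 and 97.0 CPM in ASO-L1 (log2 fold change 0.24 ± 0.07, edgeR adjusted p = 0.0267). IARS, the isoleucyl enzyme, was at 348, 305 and 355 CPM in SO-L1 and 402, 372 and 409 CPM in ASO-L1 (0.23 ± 0.07, adjusted p = 0.0330), and it was the 1 multisynthetase enzyme that rose. YARS, the tyrosyl enzyme, was at 245, 244 and 242 CPM in SO-L1 and 272, 292 and 274 CPM in ASO-L1 (0.19 ± 0.06, adjusted p = 0.0265). For none of the 3 did the groups overlap, although for IARS the lowest ASO-L1 library, 372 CPM, was only a little above the highest control, 355 CPM. Without single libraries the calls were lost for HARS (SO-L1 replicate 1, 2 or 3, adjusted p = 0.0517, 0.0863 and 0.0799; ASO-L1 replicate 3, 0.0550), IARS (SO-L1 replicate 1, 2 or 3, 0.0693, 0.104 and 0.0583; ASO-L1 replicate 1 or 3, 0.0882 and 0.0992) and YARS (SO-L1 replicate 1, 2 or 3, 0.0660, 0.0554 and 0.104; ASO-L1 replicate 3, 0.0538). With library size as the only scaling, IARS (adjusted p = 0.0529) and YARS (0.0518) did not pass either, and YARS did not pass with no filter on low counts (0.0774). In the authors' deposited table HARS, IARS and YARS had adjusted p-values of 0.0845, 0.0882 and 0.0839, while AARS, CARS, GARS and the 4 cytosolic genes that fell were under 0.05.

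**Figure D2:**
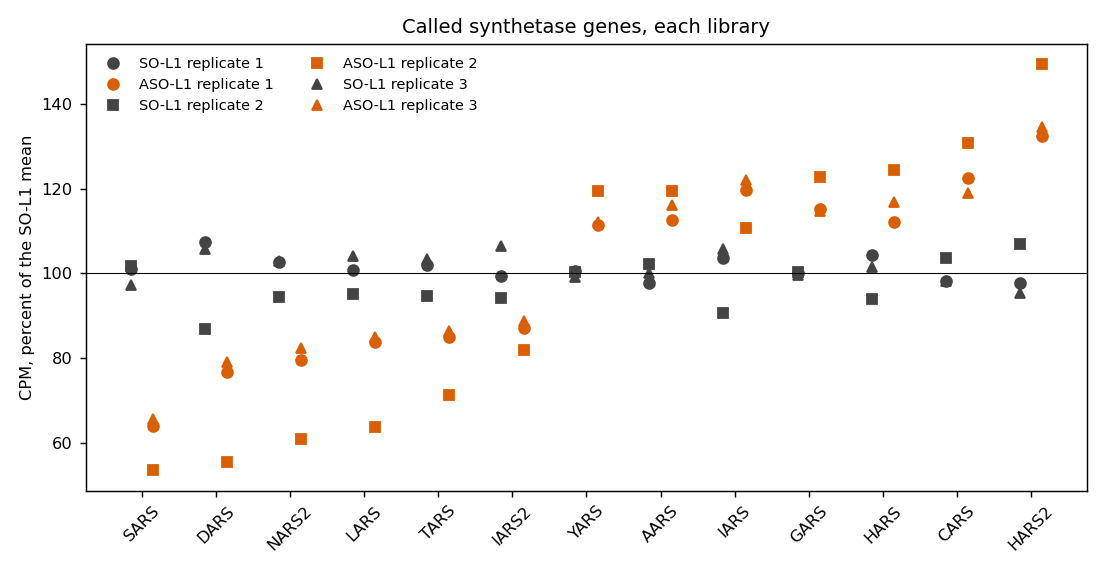
CPM of each called synthetase gene in each library, as a percent of that gene's SO-L1 mean (line at 100), with group by colour and replicate number by symbol. In every gene shown the ASO-L1 libraries lie on 1 side of the SO-L1 libraries, and in 12 of the 13 ASO-L1 replicate 2 lies farthest from 100, IARS being the exception.

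The remaining 10 cytosolic genes did not pass the test. NARS, the asparaginyl enzyme, was at 441, 439 and 431 CPM in SO-L1 and 475, 491 and 484 CPM in ASO-L1, so its groups did not overlap (0.15 ± 0.05, edgeR adjusted p = 0.0638, and 0.0443 with the replicate block). MARS, the methionyl enzyme, had a log2 fold change of -0.15 ± 0.08 (adjusted p = 0.145, and 0.0369 with the block). FARSB, a subunit of the phenylalanyl enzyme, had -0.19 ± 0.10 (0.178, and 0.0202 with the block), while its partner subunit FARSA had 0.05 ± 0.06 (0.597). The last 6, EPRS, KARS, QARS, RARS, VARS and WARS, lay between -0.10 and 0.04. EPRS carries the glutamyl and prolyl activities in 1 chain and KARS serves both compartments, and their groups of libraries overlapped.

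HARS2, the mitochondrial histidyl enzyme, was the only mitochondrial gene that rose. It held 40.1, 43.9 and 39.1 CPM in SO-L1 and 54.4, 61.3 and 55.3 CPM in ASO-L1. The groups were well separated, the log2 fold change was 0.47 ± 0.08, a rise of 38.9%, and the edgeR adjusted p was 0.00299. The call held without any single library and was lost in 1 of 17 alternatives, without replicate 1 of both groups (0.0502). HARS2 and HARS lie head to head on chromosome 5, with 84 bases (chr5:140691371-140691454, 59.5% G or C, 9 CG pairs) between their RefSeq starts, and both were called higher. Their exons overlap by 402 bases on opposite strands in GENCODE v29. Whether reads were counted by strand is not given in the sources used here, and without strand the reads of the shared bases cannot be told apart. The HARS to HARS2 ratio was lower in every ASO-L1 library, at log2 values of 0.78, 0.75 and 0.81 against 1.11, 0.83 and 1.11 in SO-L1.

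NARS2 and IARS2 were the mitochondrial genes that fell. NARS2, the asparaginyl enzyme, was at 30.9, 28.4 and 31.0 CPM in SO-L1 and 24.0, 18.3 and 24.8 CPM in ASO-L1, a log2 fold change of -0.43 ± 0.12 (edgeR adjusted p = 0.0179). IARS2, the isoleucyl enzyme and by CPM the most abundant mitochondrial member, was at 157, 149 and 168 CPM in SO-L1 and 138, 130 and 140 CPM in ASO-L1, a change of -0.22 ± 0.07 (adjusted p = 0.0300). Neither gene's groups overlapped. The call of NARS2 was lost without SO-L1 replicate 1 (0.0763) or 3 (0.0701), and that of IARS2 without SO-L1 replicate 1 (0.0784), SO-L1 replicate 3 (0.141) or ASO-L1 replicate 1 (0.0893). In the authors' deposited table NARS2 had an adjusted p of 0.0315 and IARS2 of 0.0624.

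Most of the 13 other mitochondrial genes were measured slightly lower, short of the threshold. FARS2, the phenylalanyl enzyme, had the largest of these values, -0.37 ± 0.15 (edgeR adjusted p = 0.0735, and 0.00503 with the replicate block), at 17.2, 15.1 and 17.9 CPM in SO-L1 and 15.3, 10.0 and 13.6 CPM in ASO-L1. Its groups overlap through ASO-L1 library 1 and SO-L1 library 2. Its adjusted p was 0.0403 without the former and 0.0662 without the latter, and from 0.0951 to 0.212 without any other single library. EARS2, the glutamyl enzyme, was at 94.0, 92.4 and 98.4 CPM in SO-L1 and 88.3, 72.5 and 87.6 CPM in ASO-L1 (-0.20 ± 0.08, 0.0918, and 0.0206 with the block). AARS2, CARS2, LARS2, PARS2, RARS2, TARS2 and WARS2 lay between -0.19 and -0.04. MARS2 (0.13 ± 0.08), VARS2 (0.19 ± 0.09) and YARS2 (0.11 ± 0.07) were the 3 with a value above 0, and in each all ASO-L1 libraries stood above all controls. Counts per library were no lower than 227 for any mitochondrial and 1803 for any cytosolic member, so a count of 0 limits none of these values.

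Summed over the genes, the cytosolic level was 5288, 5090 and 5297 CPM in SO-L1 and 5156, 4919 and 5282 CPM in ASO-L1, and the groups overlapped. The mitochondrial sum was 781, 765 and 797 CPM in SO-L1 and 740, 689 and 751 CPM in ASO-L1, without overlap. It is weighted to its most abundant genes. IARS2, EARS2 and LARS2 had means of 158, 94.9 and 94.9 CPM in SO-L1 and 136, 82.8 and 87.7 CPM in ASO-L1. Of the 16 genes, 4 had a log2 fold change above 0, among them HARS2 (41.0 and 57.0 CPM). The ratio of cytosolic to mitochondrial counts, which does not depend on the scaling of a library, was 6.77, 6.65 and 6.64 in SO-L1 and 6.96, 7.14 and 7.04 in ASO-L1. It was thus higher in all 3 ASO-L1 libraries, by a few percent. The ratio says that the sums changed unequally and not that either stayed the same. The difference between the compartments' calls was not tested.

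**Figure D3:**
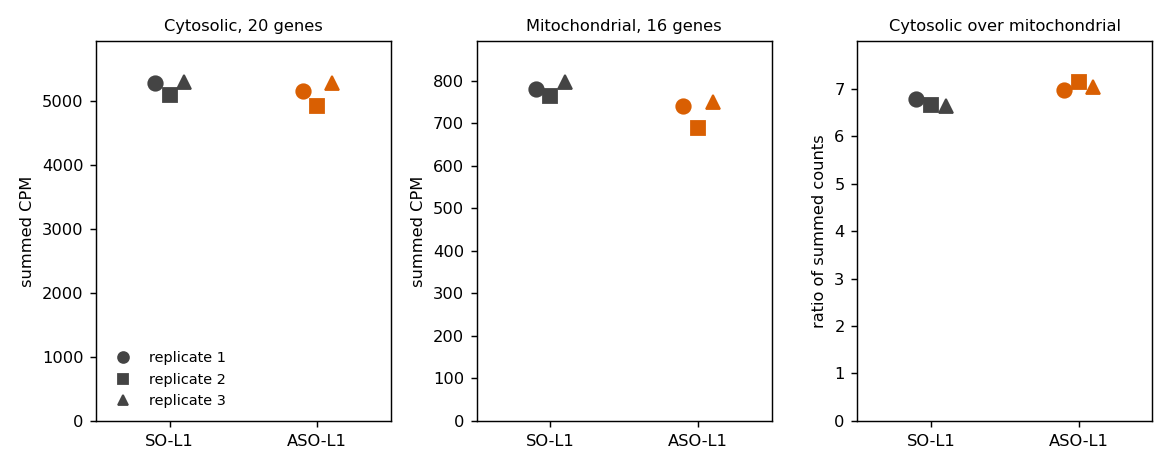
Summed CPM of the 20 cytosolic genes, summed CPM of the 16 mitochondrial genes, and the ratio of their summed counts, in each of the 6 libraries. The cytosolic sums of the groups overlap, the mitochondrial sums are lower in ASO-L1 (689 to 751 against 765 to 797 CPM), and the ratios are higher (6.96 to 7.14 against 6.64 to 6.77).

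Pairing each cytosolic gene with the mitochondrial gene for the same amino acid gave 17 ratios per library, in which EPRS enters with both EARS2 and PARS2, and FARS2 with both FARSA and FARSB. The ratio was higher in all ASO-L1 libraries for 7 pairs, lower for 6 and overlapping for 4. Such shares were not computed for ratios of other genes, so these counts are not read as a trait of the pairs. The widest shift upward was NARS to NARS2, from a log2 ratio of 3.86 ± 0.08 (SD, n = 3) to 4.45 ± 0.26, a difference of 0.59. CARS to CARS2 (0.46), IARS to IARS2 (0.45), FARSA to FARS2 (0.44) and AARS to AARS2 (0.39) moved the same way. For isoleucine the cytosolic gene was called higher and the mitochondrial gene lower. The widest shift downward was SARS to SARS2, from 2.21 ± 0.03 to 1.67 ± 0.17, a difference of -0.54. VARS to VARS2 (-0.30), MARS to MARS2 (-0.29), LARS to LARS2 (-0.26), HARS to HARS2 (-0.24) and TARS to TARS2 (-0.12) were the other pairs with a lower ratio in every ASO-L1 library. The pairs therefore did not share 1 direction.

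**Figure D4:**
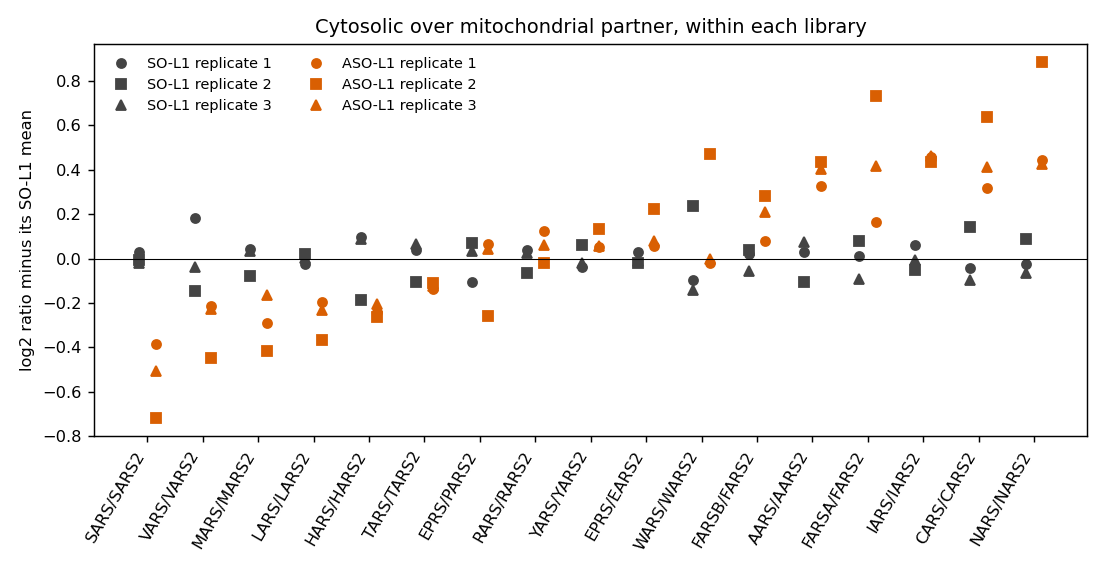
Log2 ratio of each cytosolic gene to its mitochondrial partner within each library, minus the mean of that ratio over the SO-L1 libraries, for 17 pairs. The means range from -0.54 for SARS/SARS2 to 0.59 for NARS/NARS2, and ASO-L1 replicate 2 lies farthest from 0 in most pairs at both ends.

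Levels between genes were compared as CPM per kilobase of transcript, using the GENCODE v29 transcript with the longest coding sequence. In SO-L1 the 16 highest of the 36 were all cytosolic. The order ran from TARS (189 ± 9.05 CPM per kb, SD, n = 3) through NARS (141 ± 1.66), GARS (129 ± 0.495), KARS (123 ± 2.02), AARS (118 ± 2.64), SARS (112 ± 2.62) and QARS (110 ± 5.23), in which the neighbours SARS and QARS did not differ beyond their spread. The median was 80.2 for cytosolic and 17.3 for mitochondrial genes. EARS2 (55.5 ± 1.84) and IARS2 (44.4 ± 2.72) were the highest mitochondrial genes, CARS (25.8 ± 0.828) was the lowest cytosolic gene, and VARS2 (5.60 ± 0.466) and WARS2 (4.78 ± 0.242) closed the order. Per length, the cytosolic gene exceeded its partner in each of the 17 pairs, from 1.24 times for EPRS over EARS2 to 15.9 times for WARS over WARS2. In ASO-L1, SARS dropped from rank 6 to rank 13 (68.6 ± 7.45 CPM per kb), LARS went from 10 to 14, and HARS2 went from 28 to 24. These lengths come from GRCh38 gene models, whereas the reads were counted on hg19 with an annotation that is not given, so small gaps between genes are uncertain.

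**Figure D5:**
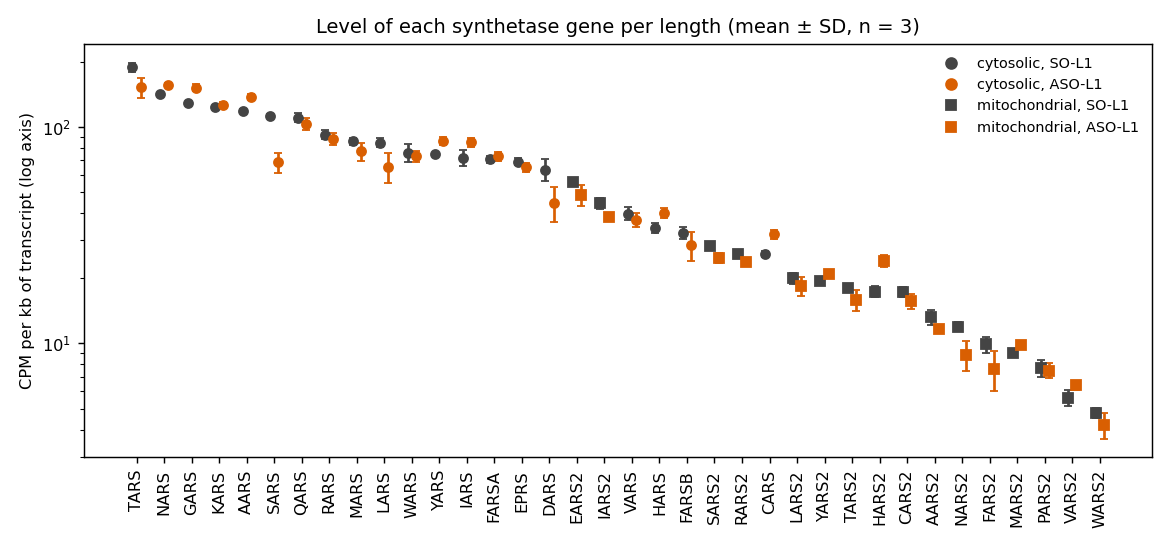
Level of each synthetase gene as CPM per kilobase of transcript (log axis, mean with SD over 3 libraries) in SO-L1 and ASO-L1, ordered by the SO-L1 level, with circles for cytosolic and squares for mitochondrial genes. Cytosolic genes fill the first 16 places, and SARS shows the widest gap between the groups.

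Known groupings of the enzymes did not separate the genes that rose from those that fell. Of 10 class I cytosolic genes 3 rose and 1 fell, and of 10 class II genes 3 rose and 3 fell. Of the 8 enzymes of the multisynthetase complex 1 rose and 2 fell (median log2 fold change -0.09), and of the 12 other cytosolic genes 5 rose and 2 fell (median 0.10), beside the background of 18.0% and 15.7%. AIMP1, a scaffold protein of the complex, fell from 56.3 ± 2.49 to 47.9 ± 2.92 CPM (-0.23 ± 0.08, edgeR adjusted p = 0.0371), while the scaffold genes AIMP2 (0.11 ± 0.08) and EEF1E1 (-0.03 ± 0.09) did not pass. Among 12 cytosolic genes often listed as ATF4 targets, 5 rose and 3 fell (LARS, SARS and TARS), with a median of 0.05. Of the members with a promoter window, the response element letters were present in 4 of the 6 that rose, in 1 of the 4 that fell, TARS, and in 3 of the 19 that did not pass, MARS, NARS and YARS2. The share was 4.46% over all genes with windows. These groups mix the compartments, and HARS2, IARS2 and NARS2 are mitochondrial, where 1 of 14 genes had a match. The called genes DARS, LARS and YARS had no window. A link of the letters to direction was not tested. SARS, whose fall was the largest, had no match in its windows, and neither did HARS2, whose rise was the largest.

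Genes of the amino acid response outside the synthetases were taken from a list of 35, with a median log2 fold change of 0.09. Of these, 10 rose (28.6%) and 4 fell (11.4%), beside 18.0% and 15.7% of all tested genes. ATF4 itself rose from 317 ± 20.7 to 512 ± 95.4 CPM (0.69 ± 0.12, edgeR adjusted p = 0.00390), and its target DDIT3, a transcription factor of the stress response, from 29.3 ± 15.7 to 104 ± 37.3 CPM (1.83 ± 0.46, adjusted p = 0.0353). ATF5 (1.49 ± 0.16) and the cationic amino acid transporter gene SLC7A1 (0.58 ± 0.08) rose, and the cystine transporter gene SLC7A11 fell (-0.64 ± 0.11). ASNS, the asparagine synthetase gene and a standard readout of this response, was at 70.8 ± 9.80 and 76.9 ± 7.64 CPM (0.12 ± 0.11, adjusted p = 0.404). Exons of MARS and DDIT3 overlap by 62 bases on opposite strands in GENCODE v29, where reads cannot be told apart without strand.

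Neighbouring genes of other members were read in the same way. Of the divergent partners that start within 1 kb of a member, TERF2IP beside KARS rose (0.82 ± 0.13, edgeR adjusted p = 0.00309) while KARS did not pass. LYRM4 beside FARS2, a gene for iron-sulfur cluster assembly, fell (-0.34 ± 0.10, adjusted p = 0.0210). DDX19B beside AARS, ING1 beside CARS2, UBFD1 beside EARS2, ORC3 beside RARS2, MRPS12 beside SARS2 and WDR25 beside WARS did not pass. Exons of EARS2 and UBFD1 share 370 bases, of SARS2 and MRPS12 349, of WARS and WDR25 272 and of YARS and S100PBP 248, on opposite strands, so those members carry the same limit as HARS and HARS2. Smaller overlaps with antisense or divergent transcripts were annotated for other called members, 157 and 76 bases for CARS, 114 for DARS, 99 for GARS, 98 for NARS2 and 42 for LARS. AARS2 shares 235 bases with TMEM151B, and SARS2 shares 1492 bases with the gene model AC011455.2 on its own strand, where counting by strand would not separate the reads either.

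Other genes of tRNA charging and translation also moved in both directions. In a list of relatives and charging factors outside the members, 2 of 13 tested genes rose (15.4%) and 5 fell (38.5%). Among all tested genes 18.0% were called higher and 15.7% lower, which is the background for each count here. Genes of tRNA transcription, processing and export lay near it (21.9% and 15.6%), and mitochondrial ribosomal protein genes lay below it (8% and 10.7%). PTRH2, a mitochondrial peptidyl-tRNA hydrolase, went from 31.4 ± 2.31 to 53.8 ± 8.58 CPM (0.78 ± 0.11, edgeR adjusted p = 0.00194), and GATC, a subunit of the amidotransferase that makes mitochondrial glutaminyl-tRNA, rose by 0.32 on the log2 scale. DTD2, which removes wrongly attached amino acids from tRNA, fell (-0.74 ± 0.12). Of 32 genes of tRNA transcription, processing and export 7 rose, among them CLP1 (0.56 ± 0.10) and TSEN34 (0.45 ± 0.10) of the splicing endonuclease machinery and GTF3C5 of TFIIIC (0.36 ± 0.08), and 5 fell, among them the TFIIIB subunit gene BDP1 (-0.72 ± 0.12). XPOT, the tRNA exporter, did not pass (0.14 ± 0.06, adjusted p = 0.112). Of 11 mitochondrial translation factor genes the 2 called, MTRF1L (0.27 ± 0.07) and GFM1 (0.20 ± 0.07), rose. Of 75 tested mitochondrial ribosomal protein genes 6 rose and 8 fell (median -0.02), and of 7 tested cytosolic elongation factor genes EEF2 rose (0.21 ± 0.06) and EEF1A2 fell (-0.41 ± 0.13).

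The libraries held 23330875 to 31164287 counts, of which the cytosolic genes took 0.481% to 0.534% and the mitochondrial genes 0.0673% to 0.0798%. The groups separated on the first principal component (68.8% of the variance of log2 CPM), and replicate 2 stood apart from replicates 1 and 3 in both. The pluripotency gene POU5F1 was at 1265 ± 67.7 CPM in SO-L1 and 1136 ± 79.4 CPM in ASO-L1, and 1 of 9 pluripotency markers was called, PRDM14, which fell. The 9 summed to 4983 to 5377 CPM in SO-L1 and 4289 to 4953 CPM in ASO-L1, 8 of them had a log2 fold change below 0, and 6 were called lower with the replicate block. Naive markers moved in both directions (3 higher and 3 lower of 11 tested), and KLF17 (0.743 ± 0.196 and 0.395 ± 0.146 CPM), ARGFX and KHDC1L were at or near 0 in both groups. Counts of called markers stand beside 18.0% of all tested genes called higher and 15.7% lower. Summed markers of 3 other cell types were higher in all ASO-L1 libraries. Primed markers (5 of 9 called, all higher) summed to 616 to 638 CPM in SO-L1 and 811 to 907 CPM in ASO-L1, fibroblast and mesenchymal markers (4 of 10, all higher, with FAP at 0 and DCN near 0) to 485 to 553 and 565 to 652, and trophectoderm markers (4 of 9, all higher, with CGA near 0) to 304 to 323 and 341 to 387. Primitive endoderm markers (3 of 7, all higher) summed to 112 to 120 CPM in SO-L1 and 114 to 116 in ASO-L1, which overlap. The part of these markers in the synthetase values was not tested. All 13 called members were also called without replicate 2 of both groups, whereas without replicate 1 or 3 of both SARS was the 1 cytosolic gene called.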

How the data were processed

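RNA-seq was measured in 6 libraries, 3 per group. The deposited table holds whole-number read counts per gene, unnormalised and with duplicates removed per its title. Per the submitters' processing notes, the build was hg19 and the tools were featureCounts, Subread 1.5.0, TopHat2 2.0.13 and Trim Galore 0.4.0, with no roles given. Annotation, strand setting and the details of duplicate removal: not given in the sources used here. Without molecular identifiers, such removal lowers abundant genes most. Per the file headers, the authors' deposited table of the comparison lists log2 fold changes with raw and adjusted p-values from an unstated model. A deposited table of batch-corrected log2 values was not used.

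Tests started from the counts. filterByExpr of edgeR 4.0.16 (minimum count 10, minimum total 15) kept 16873 of 53712 genes. The test was edgeR's two-sided quasi-likelihood test with TMM factors, robust dispersion and no replicate term, with calls at a Benjamini-Hochberg adjusted p under 0.05. Standard errors were derived as the absolute log2 fold change over the root of F. Levels are CPM scaled by TMM factors, as mean ± SD over 3 libraries. The common biological coefficient of variation was 10.2%. Alternatives were other scalings, DESeq2 1.42.0, limma 3.58.1 (voom), other filters on low counts, a test against a 1.2-fold change, the replicate block and libraries left out.

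The members and gene lists were chosen with earlier results of these data known. All members are accounted for, and called members and up to 4 genes of smallest p from each other list are named, with ATF4, DDIT3, ASNS and XPOT, and 1 gene of this rule is not reported here; markers named at 0, neighbouring genes and the sequences printed were chosen after the values were seen. No protein sequence was used here. Gene models are GENCODE v29.

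Deviations from the group means of libraries with the same replicate number correlated at 0.102, 0.377 and 0.211 for numbers 1, 2 and 3 and were taken as pairs. The crossed correlations were higher for SO-L1 library 1 with ASO-L1 library 3 (0.156) and for SO-L1 library 3 with ASO-L1 library 1 (0.162, against 0.102), so only number 2 is matched clearly. No libraries of a group matched within sampling noise (chi-square over its degrees of freedom was 1.97 between ASO-L1 1 and 3, and 5.90 to 22.1 between other pairs).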

Additional observations from a re-analysis of the deposited data

How the results depend on the processing

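The median log2 fold changes of both compartments stayed below 0 in every alternative, from -0.09 to -0.03 for the cytosolic and from -0.19 to -0.10 for the mitochondrial genes. With library size as the only scaling the median of all genes was -0.05 and 46.7% of calls were increases, against 53.3%. Counts of calls depended on the libraries. Leaving out 1 library gave 1 to 6 cytosolic genes higher and 1 to 4 lower, 1 to 1 mitochondrial higher and 0 to 2 lower, and 2975 to 5322 genes of all, with 5684 from all 6 libraries. SO-L1 replicates 1 and 3 gave the lowest counts (2 and 1 cytosolic genes higher, 1 and 1 lower, and 3166 and 2975 of all genes). The cytosolic genes called higher were 3 when SO-L1 replicate 2 was left out and 3 when ASO-L1 replicate 3 was. Leaving out a replicate number in both groups gave 0 (numbers 1 and 3) to 7 cytosolic genes higher and as few as 1 lower, 0 mitochondrial higher (number 1) and 0 to 4 lower, and 1183, 7197 and 2820 of all genes without numbers 1, 2 and 3; fewer samples entered each of these tests. Against a 1.2-fold change 0 cytosolic genes were called higher and 1 lower, SARS, and 0 mitochondrial genes lower, with 2066 of all genes. The replicate block called 5 mitochondrial genes lower, and beside the members named with it in the report it changed no other member's call. The direction reversed for 2 members that were never called, WARS (-0.0945 to 0.0289 over left-out libraries, above 0 without SO-L1 replicate 2) and PARS2 (-0.164 to 0.0808, above 0 without SO-L1 replicate 1, ASO-L1 replicate 1 or both). Over members and alternatives, 532 of the values kept direction and side of the threshold, 64 lost and 12 gained the call. Depth limits no member, the lowest count being 227.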
